A study of Mus musculus with 4 samples.

Results

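Polycomb, trithorax and histone demethylase genes were examined for binding of FOXL2, a forkhead factor that marks the granulosa lineage, in the fetal mouse ovary. The set held 49 of 21887 protein-coding genes and was given as a list of names, drawn up with earlier results of these data known. It comprised 11 genes of Polycomb repressive complex 1 (PRC1), 9 of Polycomb repressive complex 2 (PRC2), 3 ASXL genes, 5 KMT2 genes, 12 histone lysine demethylase (KDM) genes and 9 chromatin remodeller genes. FOXL2 binding had been mapped by ChIP-seq, in which DNA bound by a protein is recovered with an antibody and sequenced. The ovaries came from CD1 embryos (an outbred stock) labelled XX, at stage E14.5, and had been freed of the mesonephros. The 2 FOXL2 ChIP samples used chromatin from different pools of 80 to 100 ovaries each, and 2 input samples had no antibody step. No genetic change or treatment is named for any sample. Whole ovaries were used, so the cell type in which a site was bound is not resolved.

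The values were the positions of 11438 peaks on mm10, each 300 bp wide, in 1 list for both ChIP samples. The list gave no read number, height or value per sample, so the depth is unknown, no peak has a replicate error and no difference below was tested. A gene without a peak may hold binding under the authors' threshold.

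Polycomb proteins keep genes silent through cell division. PRC1 attaches ubiquitin to a histone through its RING subunits, and PRC2 methylates a histone lysine through its EZH subunits. Trithorax-group proteins act in the opposite sense: KMT2 enzymes methylate another histone lysine at promoters and enhancers, and SWI/SNF remodellers move nucleosomes. KDM enzymes remove methyl groups from histone lysines. In the gonad, CBX2 and KDM3A are known for their part in the expression of the male-determining gene Sry, and loss of either can turn XY mice towards female development.

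FOXL2 peaks lay at almost every gene of the set. A gene was counted when a peak centre lay inside it or within 10 kb of either end, and 46 of the 49 genes (93.9%) met this. Of all protein-coding genes 49.6% did. The genes of the set are long, with a median of 58.2 kb against 17.2 kb for all protein-coding genes, and a longer gene has more room for a peak. All protein-coding genes were therefore placed in 20 bins of near-equal number by length, and the share in the bin of each listed gene was averaged. This length-matched share was 61.9%. The genes without a peak were Cbx6, Cbx8 and Phf19.

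The 46 genes had 76 peaks, and no peak was counted for more than 1 of them. A single peak was found at 28 genes, 2 at 10 genes, 3 at 5 genes, 4 at Bmi1 and Kdm2b, and 5 at Chd7. At least 2 peaks were present at 18 genes (36.7% against 20.6% length-matched and 14.8% of all protein-coding genes). At least 3 were present at 8 genes (16.3% against 4.59% length-matched and 2.82% of all). Bmi1, Kdm2b and Chd7 had at least 4 (0.407% of all, a share not matched on length). The mean was 1.55 peaks per gene, against 0.88 for length-matched genes.

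Peaks were then separated by where they lay. An own-border peak had its centre within 1 kb of an end of the gene, with the end of no other protein-coding gene nearer. An off-border peak lay over 1 kb from the end of every protein-coding gene. The remaining peaks lay at the border of a neighbour. Own-border peaks were present at 32 genes (65.3% against 40.3% length-matched and 31.3% of all). Off-border peaks were present at 21 genes (42.9% against 20.9% length-matched and 13.7% of all). Peaks at a neighbour's border were present at 9 genes (18.4%), close to the length-matched 16% and the 15.8% of all. The shares of own-border and off-border peaks were thus above those of genes of like length, and that of neighbours' peaks was near it.

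**Figure D1:**
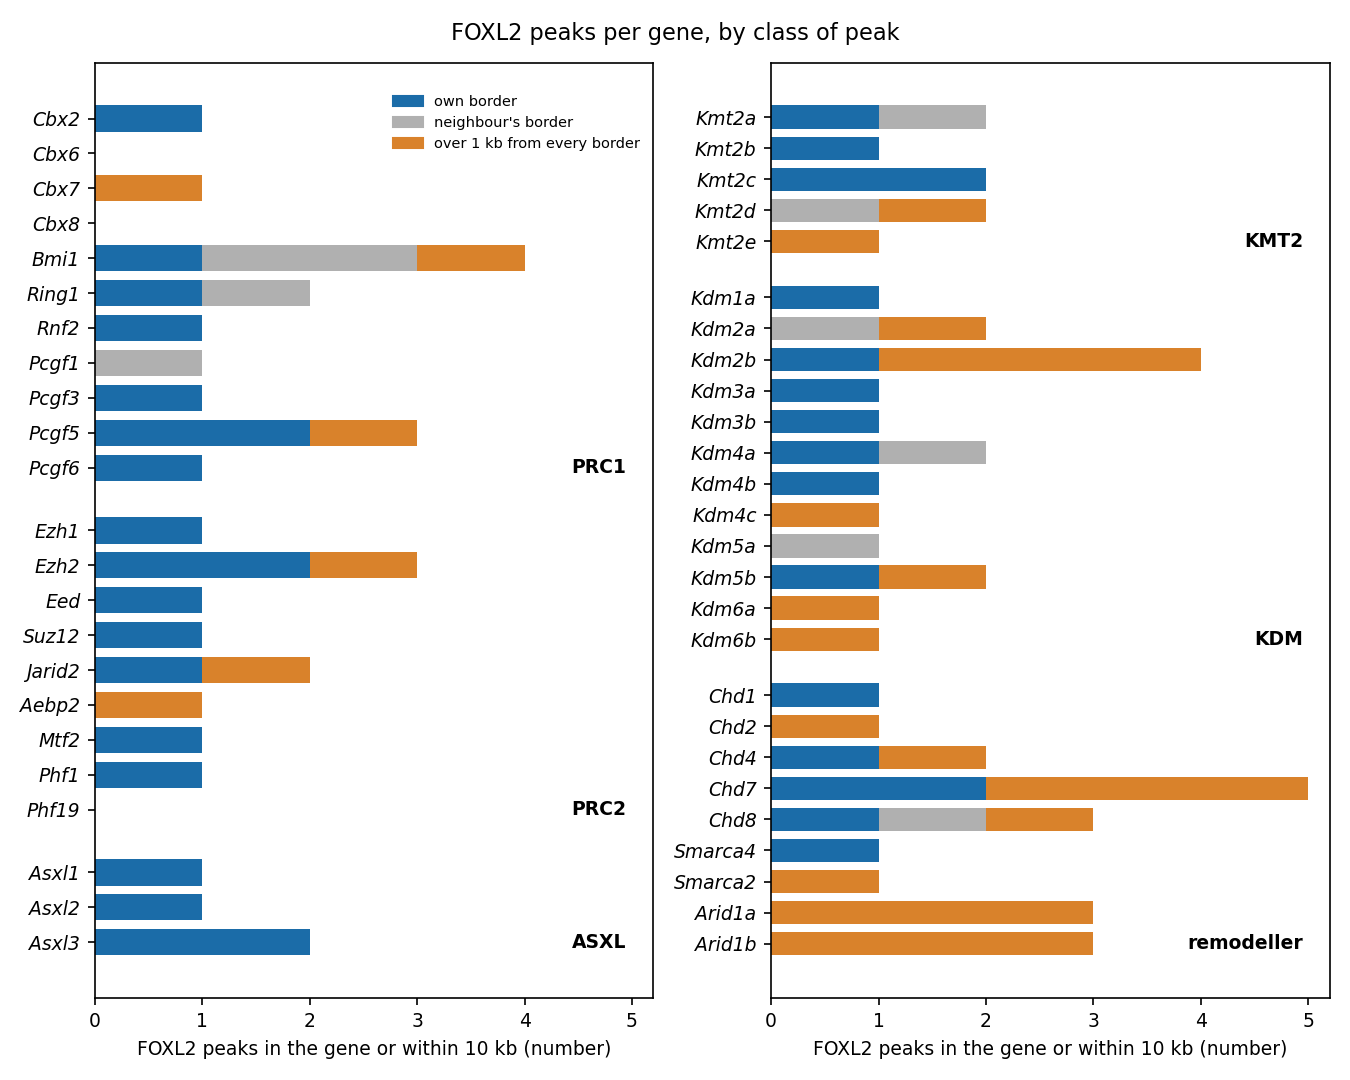
Horizontal bars give the number of FOXL2 peaks in each of the 49 genes or within 10 kb of it, split into peaks at the gene's own border, at a neighbour's border, and over 1 kb from every protein-coding border. Cbx6, Cbx8 and Phf19 have no bar, and Chd7 has the longest with 5 peaks.

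The groups differed in which class was frequent. PRC2 and ASXL genes had mostly own-border peaks, at 7 of 9 genes (77.8% against 38.3% length-matched) and at 3 of 3 (against 43.6%). Remodeller genes had mostly off-border peaks, at 7 of 9 genes (77.8% against 27.2%), while 5 of 9 had an own-border peak (55.6% against 44.9%). With a border zone of 5 kb this order reversed. PRC1 genes had an own-border peak in 7 of 11 cases (63.6% against 32.5%) and an off-border peak in 3 (27.3% against 12.9%). For KMT2 genes the counts were 3 of 5 (60% against 41.7%) and 2 of 5 (40% against 23.3%). For KDM genes they were 7 of 12 (58.3% against 44.2%) and 6 of 12 (50% against 23.1%). Every KMT2, KDM, ASXL and remodeller gene had a peak of some class in its window. The length-matched shares were 63.7% for KMT2, 66.3% for KDM, 67.7% for ASXL and 68.1% for remodeller genes. Such a peak was also present at 9 of 11 PRC1 genes (81.8% against 52.2%) and 8 of 9 PRC2 genes (88.9% against 58.6%). The groups hold 3 to 12 genes, so a single gene moves a share visibly, and the differences between groups were not tested.

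**Figure D2:**
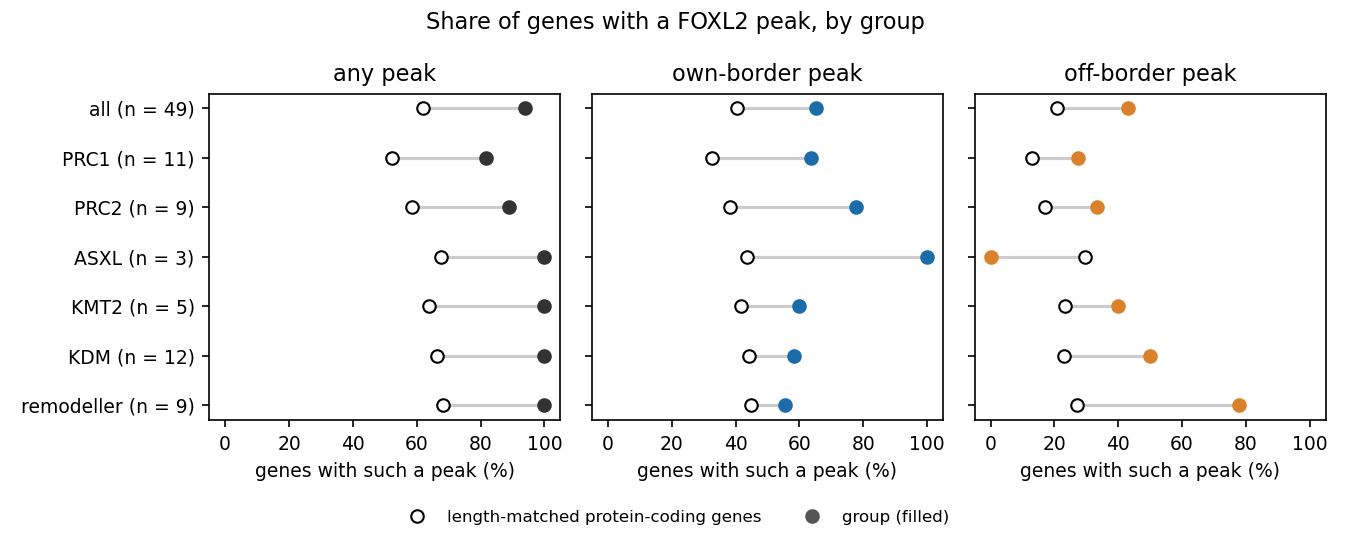
Filled points give the percentage of genes in each group with any FOXL2 peak, an own-border peak or an off-border peak, and open points give the length-matched percentage of all protein-coding genes. For off-border peaks the remodeller point lies farthest to the right, at 77.8% against 27.2%, and the ASXL point lies at 0.

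Annotated transcription starts from RefSeq (GRCm38.p6, the assembly that mm10 denotes) were used to ask which end of the gene was bound. They were present for 36 of the 49 genes and for 17492 protein-coding genes. The genes for which only borders could be used were Cbx2, Pcgf1, Asxl3, Kmt2b, Kmt2e, Kdm2a, Kdm3b, Kdm4b, Kdm5a, Kdm6b, Chd1, Chd2 and Chd7. All 28 own-border peaks at genes with a known strand lay at the 5′ end, as did 98.3% of such peaks over all genes (5756 at the 5′ end and 102 at the 3′ end). A peak centre lay within 1 kb of an annotated start in 31 of the 36 genes (86.1%), against 50.5% of length-matched genes and 38.4% of all. The exceptions were Cbx6, Cbx7, Cbx8, Phf19 and Smarca2. No start of another protein-coding gene was nearer to the peak in any of the 31.

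Relative to the nearest start of their own gene, these 36 peaks lay between 992 bp upstream and 719 bp downstream, with a median of 86.5 bp downstream. Downstream of the start lay 21 of them (58.3%), and 15 lay upstream. Over all genes 7318 such peaks had a median of 122 bp downstream, and 70.9% lay downstream. The middle 50% of the peaks spanned -174 to 358 bp in the set and -54.8 to 257 bp over all genes.

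**Figure D3:**
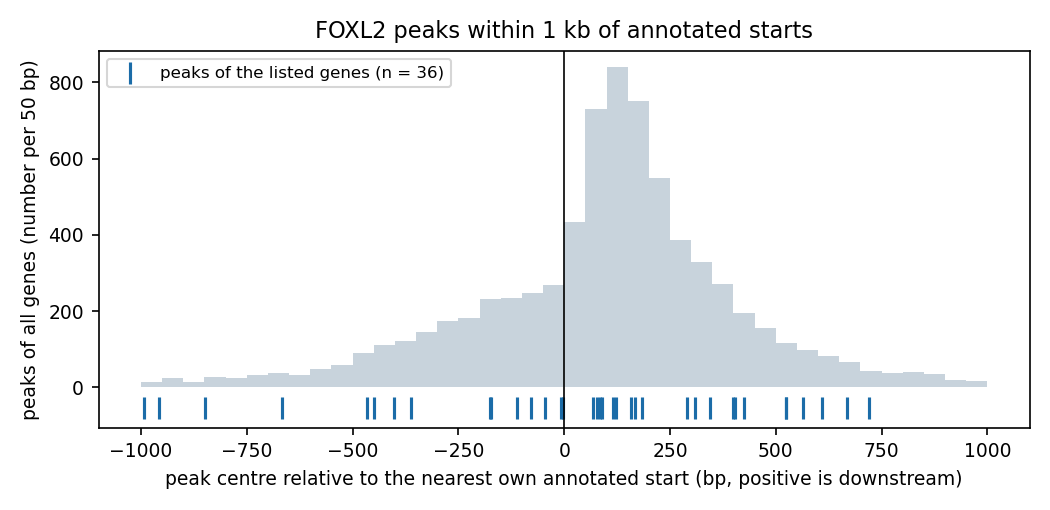
The histogram gives, for all protein-coding genes with an annotated start, the number of FOXL2 peaks per 50 bp of distance between peak centre and nearest start of the gene, with downstream positive. Ticks below it give the 36 peaks of the listed genes, which spread from -992 to 719 bp.

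Part of the off-border class proved to lie at starts inside the gene. Of 22 off-border peaks at genes with annotated starts, 8 (36.4%) lay within 1 kb of a start of their own gene, as did 33.5% of such peaks over all genes. The 8 were at Pcgf5, Aebp2, Kmt2d, Kdm2b, Kdm4c, Kdm6a, Arid1a and Arid1b. The off-border counts above therefore include peaks at inner starts, and the other 14 peaks lay over 1 kb from every annotated start of their own gene.

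The promoter of a gene with several starts shows the pattern most directly. The sequences below are the RefSeq promoters (GRCm38.p6) of Kdm4c and Mtf2, from 250 bases before to 50 after each start, and that of Phf19, which had no peak. They run 5′ to 3′ on the strand of the gene, and capitals mark CG dinucleotides. They are shown because the starts with a peak were those rich in CG.

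Kdm4c first start, chr4:74242247-74242546, plus strand, no peak: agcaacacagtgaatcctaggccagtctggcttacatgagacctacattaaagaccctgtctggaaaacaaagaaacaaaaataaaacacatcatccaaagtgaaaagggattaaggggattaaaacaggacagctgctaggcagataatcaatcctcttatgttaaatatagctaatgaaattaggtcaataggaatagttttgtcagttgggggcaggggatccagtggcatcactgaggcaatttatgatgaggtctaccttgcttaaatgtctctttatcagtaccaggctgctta
Kdm4c second start, chr4:74251629-74251928, plus strand, peak 116 bp downstream: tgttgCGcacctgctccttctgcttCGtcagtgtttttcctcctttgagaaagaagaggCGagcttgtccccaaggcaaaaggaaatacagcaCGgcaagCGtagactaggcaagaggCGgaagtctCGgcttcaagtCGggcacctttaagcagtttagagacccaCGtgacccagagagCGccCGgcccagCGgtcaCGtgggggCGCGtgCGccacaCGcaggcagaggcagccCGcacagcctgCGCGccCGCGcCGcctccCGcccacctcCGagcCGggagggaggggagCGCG
Mtf2 first start, chr5:108065424-108065723, plus strand, peak 4 bp upstream: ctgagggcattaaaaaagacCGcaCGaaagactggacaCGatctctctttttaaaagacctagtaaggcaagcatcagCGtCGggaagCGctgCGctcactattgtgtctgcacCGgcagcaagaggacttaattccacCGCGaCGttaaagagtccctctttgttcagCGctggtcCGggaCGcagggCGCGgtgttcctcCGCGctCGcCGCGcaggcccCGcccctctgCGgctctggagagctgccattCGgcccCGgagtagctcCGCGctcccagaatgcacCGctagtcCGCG
Mtf2 second start, chr5:108077915-108078214, plus strand, no peak: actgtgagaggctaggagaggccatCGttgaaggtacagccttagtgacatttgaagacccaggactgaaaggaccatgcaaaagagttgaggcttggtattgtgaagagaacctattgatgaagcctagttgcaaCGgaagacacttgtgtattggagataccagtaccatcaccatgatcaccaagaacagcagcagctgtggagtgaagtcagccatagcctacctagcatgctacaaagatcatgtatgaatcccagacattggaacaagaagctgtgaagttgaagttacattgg
Phf19 start, chr2:34913927-34914226, minus strand, no peak: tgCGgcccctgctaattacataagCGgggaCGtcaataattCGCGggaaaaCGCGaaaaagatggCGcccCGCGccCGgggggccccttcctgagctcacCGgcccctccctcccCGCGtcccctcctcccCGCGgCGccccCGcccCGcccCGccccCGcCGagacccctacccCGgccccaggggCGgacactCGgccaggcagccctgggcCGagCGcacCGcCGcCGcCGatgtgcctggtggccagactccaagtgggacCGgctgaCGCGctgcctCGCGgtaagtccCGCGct

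The first start of Kdm4c held 0 CpG in 300 bases and no peak, whereas its second start held 28 CpG and a peak. Mtf2 showed the same order, with 30 CpG at the start with a peak and 2 at the start without. The Phf19 promoter held 38 CpG and no peak within 10 kb of the gene, so CpG number alone did not separate promoters with a peak from those without.

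Of 9 listed genes with several starts, 7 had a peak within 1 kb of some starts and not of others. In all 7 the starts with a peak held more CpG than every start without one. The numbers were 21 against 4 and 4 for Aebp2, 34 and 35 against 5 for Pcgf5, and 24 and 40 against 0 for Kdm3a. They were 36 against 22 for Arid1a and 24 against 23 for Jarid2, a difference of 1 CpG. The starts of Jarid2, at 44730774 and 44731271, lie close together. Its peak was 848 bp upstream of the first, so only the 1 kb limit separates these starts. The order by CpG number was noticed after the values were seen, and it was the rule over all genes as well. Of 662 protein-coding genes with such mixed starts, 573 (86.6%) had it and 40 (6.04%) had the reverse.

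Over all 21263 protein-coding promoters the share with a peak within 1 kb rose with CpG number, from 0% of 984 promoters with 0 CpG to 78.4% of 1081 with 40 to 67. The 50 promoters of the set held a median of 26.5 CpG against 13 for all. A peak lay within 1 kb of 37 of them (74%), against 36.8% of all promoters and 59.7% of promoters matched on CpG number. CpG number therefore moved with the result, the matched share lying between the share of all promoters and that of the set, and its part in the result was not tested. The 37 promoters with a peak belonged to 31 genes, as nearby starts of a gene can share a peak and are not independent. They held 13 to 56 CpG (median 28). Of the 13 without a peak, 6 held at most 5 CpG. The other 7 held 22 or more and belonged to Arid1a (first start), Jarid2 (second start), Cbx6, Cbx7, Cbx8, Phf19 and Smarca2.

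**Figure D4:**
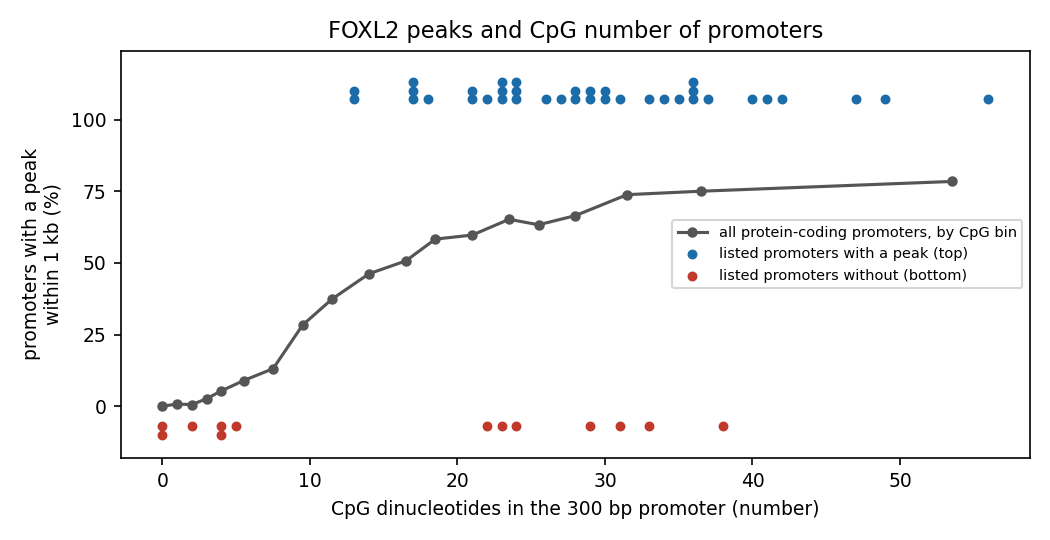
The line gives the percentage of all protein-coding promoters with a FOXL2 peak within 1 kb, by number of CpG dinucleotides in 300 bases. The 37 listed promoters with a peak (points at the top) held 13 to 56 CpG, and the 13 without (points at the bottom) held either 0 to 5 or 22 to 38.

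Short motifs were searched as exact letters on both strands of these 300 bases. The forkhead match TGTTTAC was present in 3 of the 50 promoters (6%) against 3.01% of all promoters. These were Eed, Kdm2b (first start) and Pcgf5 (first start). The stretches around the match are printed on the strand of the gene, with the match or its reverse complement in capitals.

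Eed, chr7:89981093-89981153, minus strand: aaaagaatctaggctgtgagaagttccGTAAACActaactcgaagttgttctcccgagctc
Kdm2b, chr5:122989110-122989170, minus strand: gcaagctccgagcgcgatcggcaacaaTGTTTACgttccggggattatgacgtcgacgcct
Pcgf5, chr19:36348251-36348311, plus strand: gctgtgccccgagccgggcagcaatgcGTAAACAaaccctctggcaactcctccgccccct

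The match began 150 bp upstream of the start in Eed, 44 bp in Kdm2b and 51 bp in Pcgf5, and the peak centres lay at 77, -174 and -112 bp. The Eed match lay outside its peak (89980750 to 89981049), and those of Kdm2b and Pcgf5 lay inside theirs. The forkhead variant TATTTAC was present in 1 promoter (2% against 2.59% of all), at a start of Aebp2 without a peak. GTCAAGG and GTGAAGG, forms of the FOXL2 response element, were present in 1 promoter each, of Jarid2 and Kdm3a (2% against 3.09% and 4.59%). Any of these 4 motifs was present in 6 promoters (12% against 12.7% of all). Among all promoters, 10.6% of those with a peak and 13.9% of those without held one. In this window the letters were thus not more frequent beside peaks. However, promoters with a peak had a median GC share of 63.3% against 52% without, and a median of 24 against 6 CpG. The motif shares were not matched on GC share or CpG number. Peak centres up to 1 kb from a start could also lie outside the bases searched. A link between these motifs and the peaks was therefore not tested. The GC box GGGCGGG was present in 27 promoters of the set (54% against 33.9%) and in 53.5% of all promoters with a peak. The median GC share was 65.2% in the set against 56.3% in all promoters, and the GC box shares were not matched on it. For the other motifs the shares were 10% against 11.6% (CCGGAAG, ETS factors), 4% against 4.44% (GCATGCG, NRF1) and 4% against 2.11% (TTCGCGC, E2F factors). They were 12% against 7.84% for the E-box CACGTG and 36% against 38.2% for CCAAT. None of the motifs contains another.

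PRC1 consists of a RING subunit, a PCGF subunit and, in its canonical form, a CBX subunit that reads methylated histones. Both RING genes had an own-border peak, 78 bp outside Ring1 and 609 bp inside Rnf2, in each case at the 5′ end. Ring1 had a second peak 7193 bp away, which lay 61 bp from the border of Rxrb. Among PCGF genes, which set the type of the complex, own-border peaks lay at Bmi1 (344 bp inside), Pcgf3 (525 bp inside), Pcgf6 (200 bp inside) and Pcgf5 (112 bp outside and 523 bp inside). The peak counted for Pcgf1 lay 6968 bp outside it, at the border of Lbx2. Own-border peaks were thus present at 4 of the 5 listed PCGF genes, Pcgf1 being the exception.

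Bmi1, on chromosome 2 from 18677018 to 18686629, had 4 peaks in its window, but only that at 18677213 to 18677512 belonged to its own start. The others lay at Commd3 (4416 bp upstream), 2283 bp past the 3′ end (1410 bp from Gm46725), and at Spag6 (7766 bp past the 3′ end). Pcgf5, on chromosome 19, had a further peak at 36409423 to 36409722, deep inside the gene and 176 bp upstream of an inner start with 35 CpG. A start of Pcgf5 between these, with 5 CpG, had none.

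Among the listed CBX genes, Cbx2 had a peak 399 bp inside its lower-coordinate border, on chromosome 11 at 119023269 to 119023568. Its neighbour Cbx8 had none, and the Cbx2 peak was the nearest to it at 12.9 kb. On chromosome 15, Cbx6 had no peak (nearest at 45.2 kb). Cbx7 had a single peak 4776 bp downstream of its start, at 79927721 to 79928020, nearest to the border of Apobec3 but 9652 bp from it. Own-border peaks were thus present at 1 of the 4 listed CBX genes and at 6 of the 7 listed RING and PCGF genes, where 31.3% of all genes had one and the length-matched share for the PRC1 genes was 32.5%. The split by subunit was made after the values were seen, and the difference was not tested.

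PRC2 has a catalytic EZH subunit, the core subunits EED and SUZ12, and accessory subunits that bring it to DNA. All genes of the core had a peak at the start. Ezh1 had 1 peak 89 bp and Eed 1 peak 77 bp downstream of the start, and Suz12 had 1 peak 401 bp upstream. Ezh2, on chromosome 6, had peaks on both sides of its start, 450 bp upstream (47595331 to 47595630) and 719 bp downstream (47594162 to 47594461), and another 3499 bp inside its 3′ end (47533624 to 47533923). The paralogues Ezh1 and Ezh2 were thus both bound at the start, by 1 and 2 peaks.

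Among accessory PRC2 genes, Mtf2 and Phf1 had peaks 4 and 45 bp upstream of the start, and the third Polycomb-like gene, Phf19, had none (nearest at 67.6 kb, at Fbxw2). Jarid2, which encodes a DNA-binding partner of PRC2, had a peak 848 bp upstream of its first start. A second peak of Jarid2 lay 109447 bp downstream of the nearest start, on chromosome 13 at 44840569 to 44840868. The only peak of Aebp2 lay 957 bp upstream of its second start, the one of its 3 starts that was rich in CpG.

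ASXL proteins form the deubiquitinase that removes the PRC1 mark. Asxl1 and Asxl2 had a single peak 157 and 403 bp downstream of the start. Asxl3 had 2 peaks around its border, 173 bp outside and 565 bp inside. No ASXL gene had an off-border peak, against 29.7% of length-matched genes, and these genes were 58.2 to 186 kb long. With only 3 genes a count of 0 says little, and the difference was not tested.

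Peaks on both sides of the same border were found at 5 genes of the set (10.2%), against 2.36% of length-matched genes and 1.34% of all protein-coding genes. They were Pcgf5, Ezh2, Asxl3, Kmt2c and Chd7, from 5 different groups, and they were singled out after their values were seen. The centres of the 2 peaks were 635 bp apart in Pcgf5, 638 in Chd7, 738 in Asxl3, 1169 in Ezh2 and 1281 in Kmt2c.

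The KMT2 family includes mammalian trithorax-type methyltransferases. Kmt2a had an own peak 462 bp inside its 5′ end and another at the border of Tmem25, 3767 bp past its 3′ end. Its paralogue Kmt2b had 1 peak, 683 bp inside a border. Kmt2c, of the branch that acts at enhancers, had peaks 289 bp downstream and 992 bp upstream of the start. Its paralogue Kmt2d, on chromosome 15, had a peak 667 bp upstream of its annotated start (98871723 to 98872022), 2205 bp inside the gene, whose border lies upstream of that start. The second Kmt2d peak was at Rhebl1, 7148 bp away. Kmt2e, the most divergent of the family, had 1 peak 1211 bp inside a border, at 23434098 to 23434397 on chromosome 5.

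The listed KDM enzymes belong to an amine oxidase type, KDM1A, and to the Jumonji type that makes up the rest of the list. Kdm1a had a peak 565 bp downstream of the start. Kdm2b, whose protein brings a variant PRC1 to CpG-rich promoters, had 4 peaks on chromosome 5. One lay 174 bp upstream of the first start (122989124 to 122989423) and another 184 bp downstream of an inner start with 49 CpG (122900017 to 122900316). The others were 36158 bp downstream and 5596 bp upstream of the nearest start (122952200 to 122952499 and 122994546 to 122994845). Its paralogue Kdm2a had 2 peaks 857 and 1738 bp inside a border, and both were nearer to 9430078G10Rik.

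Kdm3a, known for its part in Sry expression, had a peak 363 bp upstream of the nearest start, and Kdm3b 1 peak 199 bp inside a border. Kdm4a had a peak 84 bp downstream of the start and a second at St3gal3. Kdm4b had 1 peak 86 bp outside a border. At Kdm4c the peak of the second start lay 9498 bp from the border (chromosome 4, 74251846 to 74252145). The peak counted for Kdm5a lay 247 bp inside it but only 23 bp from the border of Ccdc77. Kdm5b had a peak 68 bp downstream and another 3046 bp upstream of the start (chromosome 1, 134556983 to 134557282).

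KDM6 enzymes remove the mark that PRC2 makes. Kdm6a, on the X chromosome, had a peak 668 bp downstream of its annotated start (18163094 to 18163393), which is 2381 bp inside the gene. Kdm6b had a peak 2841 bp inside a border, on chromosome 11 at 69401200 to 69401499, and no annotated start was at hand for it. Both were counted as off-border, so the KDM6 and EZH genes differed in class by the border rule, but Kdm6a, Ezh1 and Ezh2 all had a peak within 1 kb of a start.

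The remodellers fall into the CHD family and the SWI/SNF complex. Chd7, mutated in CHARGE syndrome in humans, had 5 peaks on chromosome 4. They lay 363 bp outside (8689890 to 8690189) and 275 and 1361 bp inside its lower-coordinate border (8690528 to 8690827 and 8691614 to 8691913), and 68.7 kb and 2216 bp inside its other end (8799588 to 8799887 and 8866084 to 8866383). At least 5 peaks were present at 0.0914% of protein-coding genes of any length. Chd7 is 178 kb long, and no length-matched share was taken for this count. Chd8 had a peak 8 bp upstream of its start, another 13320 bp downstream of it (chromosome 14, 52244291 to 52244590) and 1 more 988 bp past its 3′ end, which lay 76 bp from Supt16. Chd4, the ATPase of the NuRD complex, had a peak 122 bp downstream of its second start and another 6324 bp upstream of the first (125089508 to 125089807 on chromosome 6), 3528 bp from the border of Lpar5. Chd1 had 1 peak 271 bp outside a border, and Chd2 a single peak 27.5 kb inside the gene, on chromosome 7 at 73514087 to 73514386.

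SMARCA4 and SMARCA2 are the alternative ATPases of SWI/SNF. Smarca4 had a peak 425 bp downstream of its start, and Smarca2 had none there. The single Smarca2 peak lay 142743 bp downstream of the start, on chromosome 19 at 26747754 to 26748053, although the Smarca2 promoter held 29 CpG and that of Smarca4 33. ARID1A and ARID1B are alternative DNA-binding subunits of the same complex. Arid1a had peaks 467 bp upstream and 1020 bp downstream of its inner start (chromosome 4, 133754303 to 133754602 and 133752816 to 133753115), and 1 past its 3′ end, 1171 bp from Pigv (133672675 to 133672974). Arid1b had a peak 309 bp downstream of its start (chromosome 17, 4995234 to 4995533) and others 194836 and 283594 bp downstream of it (5189761 to 5190060 and 5278519 to 5278818). With starts in place of borders, 5 of the 6 remodeller genes with an annotated start had a peak there (83.3% against 55.6% length-matched).

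**Figure D5:**
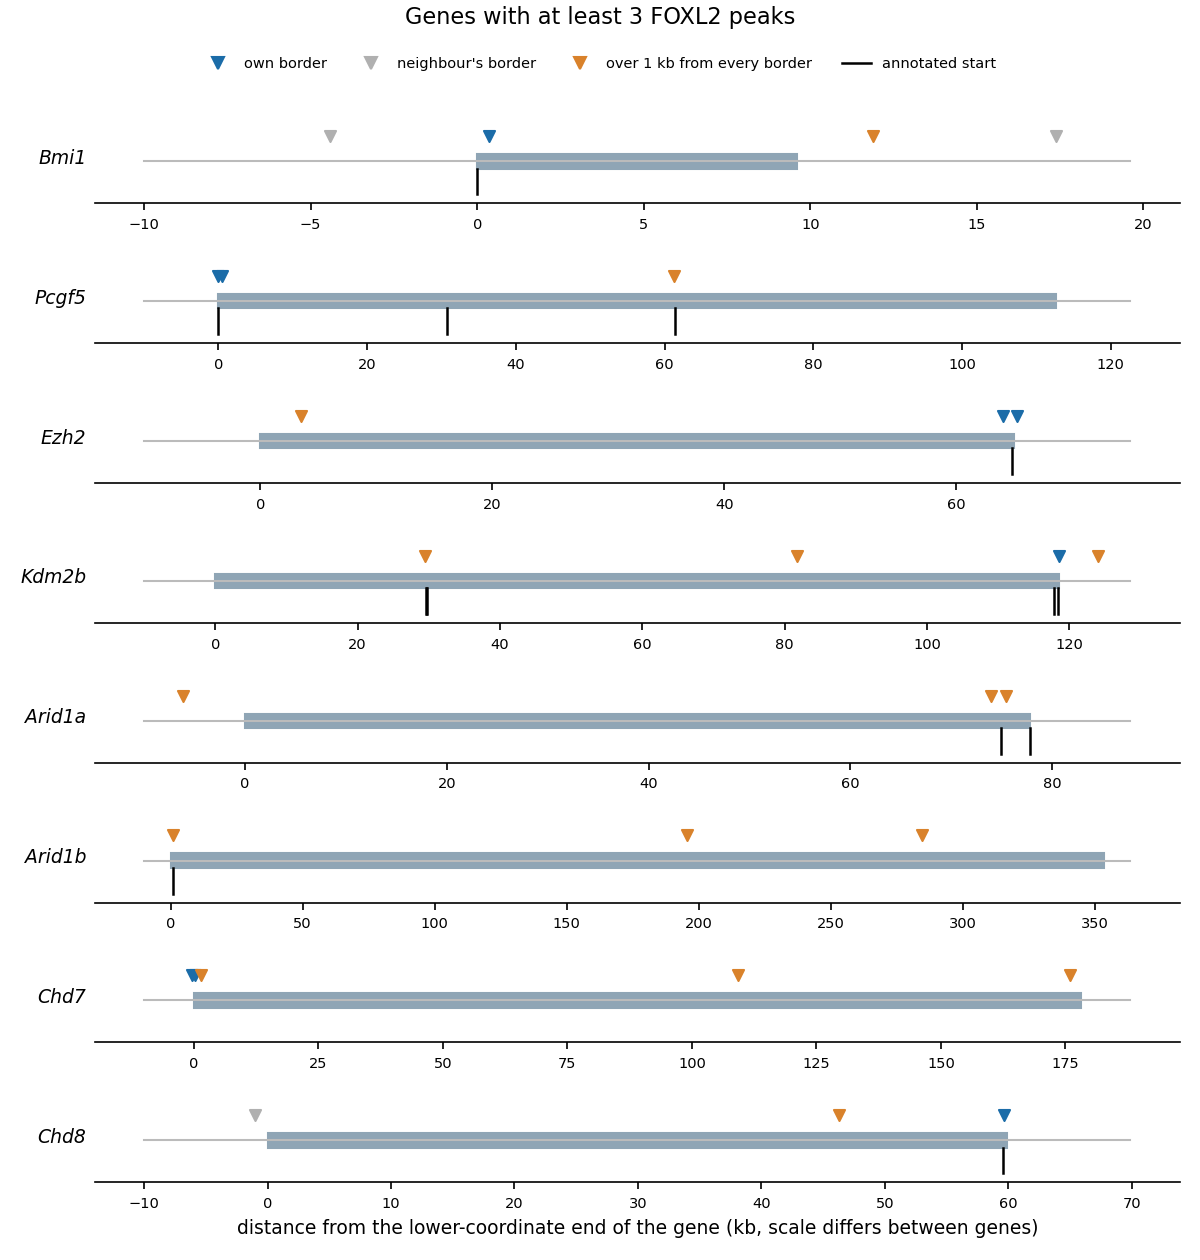
Bars show the 8 genes with at least 3 peaks in their window, each on its own scale in kb from the lower-coordinate end, with 10 kb on either side. Triangles mark peak centres by class and black ticks below mark annotated starts. The inner peaks of Pcgf5 and Kdm2b stand above an inner start, and those deep inside Arid1b do not. No start was at hand for Chd7.

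Peaks inside a gene and at least 10 kb from both of its ends numbered 11, in 9 of the 49 genes (18.4%). Of all protein-coding genes 4.77% had such a peak, and the length-matched share was 10.4%. Those of Pcgf5 and Kdm2b described above, 1 in each, lay at inner starts. The other 9 peaks were at Cbx7, Jarid2, Kdm2b, Chd2, Chd7, Chd8, Smarca2 and Arid1b (2 peaks). By group, such peaks were present at 5 of 9 remodellers (length-matched share 16.6%) and at 4 of the other 40 genes (length-matched share 9.07%). Among these 40, the share was 18.2% for PRC1 against 3.4% length-matched, and 11.1% for PRC2 against 6.97%. It was 8.33% for KDM against 12%, and 0% for ASXL and KMT2 against 18.9% and 12.3%. These counts were added after the values were seen, and the differences were not tested. Of the genes with the other 9 peaks, 6 had no annotated start of their own within 1 kb of the peak. For Chd2 and Chd7 no start was at hand.

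Other genes of the same complexes and families formed a related list of 77, taken by membership of the complex or family. Of these, 64 had a peak (83.1% against 59.7% length-matched and 49.6% of all), 50 had an own-border peak (64.9% against 38.9%) and 20 an off-border peak (26% against 18.6%). For related remodeller genes, which include the other SWI/SNF subunits, 22 of 29 had an own-border peak (75.9% against 40.3%) and 8 an off-border peak (27.6% against 19.5%). The off-border share of the 9 listed remodellers, 77.8%, was higher than that of these 29, a difference that was not tested. Both Rbbp4 and Rbbp7, which encode histone-binding subunits of PRC2, had an own-border peak.

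In the related list the genes with the most peaks were Bcor, a subunit of a variant PRC1, Jmjd1c, a relative of Kdm3a, and Chd9, with 4 each. Of the Chd9 peaks none lay at a border, and 3 of the 4 Bcor peaks were off-border. Of the 4 Jmjd1c peaks, 2 lay at the border of Reep3 and 2 at inner starts of Jmjd1c. Phc1, Phc2, Auts2, Foxk1, Dpy30, Kdm7a and Phf2 had 3. These counts include peaks at a neighbour's border, 2 at Dpy30 (near Memo1) and 1 each at Phc1, Foxk1 and Phf2. Among the 13 without a peak were Scml2, Bcorl1, Foxk2, Mbd6, Setd1b, Cxxc1, Pagr1a, Chd5, Dpf1, Dpf3 and the Y-linked Kdm5d and Uty, which tissue labelled XX should lack. Chd5, Dpf1 and Dpf3 are known mainly from neural or muscle tissue, whereas Setd1b and Cxxc1 belong to a methyltransferase complex of most cells. No expression values were used, and a link between expression and the lack of a peak was not tested.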

How the data were processed

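FOXL2 peaks of the 2 ChIP samples were analysed, and the 2 input samples had no values of their own here. Per the submitters' processing notes, Bowtie 1.2, Picard 1.110, bedtools 2.24.0, HOMER 4.9 and build mm10 were used. What each tool did, the threshold for a peak and how samples were joined is not stated in the labels. The deposited list holds start and end positions in bp. Starts were converted to 1-based positions and 11435 peaks on chromosomes 1 to 19, X and Y were used. The depth is unknown.

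Genes came from RefSeq (GRCm38.p6), and starts and promoter sequences from its promoter table, in which 36 of the 49 genes had an entry. Peak centres were assigned with Python 3.11.15, first tried on planted peaks. Length-matched shares are means over 20 bins of 1094 to 1095 genes. No test or random list was used. The members, groups and lists were chosen with earlier results of these data known, and classification by starts, matching on CpG, flanking peaks and peaks deep inside genes were added after the values were seen. Every listed gene is accounted for. Positions are given for genes with several peaks and for off-border peaks, the nearest peak for genes without one, and related genes are named with at least 3 peaks or none, except for an item that is not reported here. Alternatives changed the window, border zone, peak edge, gene kinds, merging, matching and motif mismatches.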

Additional observations from a re-analysis of the deposited data

How the results depend on the processing

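No paired analysis was possible because the single peak list holds no values per sample. For the same reason leaving out a replicate and a stricter threshold were not run. Of 180 alternative values, 160 stayed within 1.5 times the main count or within the interval of the main share. Some of these values could not move, so the total is no measure of stability. The border zone and the gene kinds change only the class of a peak, which fixes the counts of any peak. Own-border peaks lie within 1 kb of a border, so windows of 5 and 50 kb could not change their counts. The count of genes with any peak was 45 with a window of 5 kb (45.9% of all genes), 48 with 50 kb (67.5%) and 39 for the gene body alone (36.2%). The off-border class depended most on the definitions. With a 50 kb window it held 33 genes of the set (28.9% of all genes), and by group 7 PRC1, 5 PRC2, 1 ASXL and 4 KMT2 genes. With a border zone of 5 kb it held 10 (6.86% of all), and by group 1 PRC2, 0 KMT2 and 2 KDM genes, while own-border peaks then counted for 5 KMT2 genes (35.6% of all genes). With a border zone of 0.5 kb it held 5 PRC1, 1 ASXL and 4 KMT2 genes (20.1% of all genes), and with borders of genes of all kinds 1 KMT2 gene (12.1% of all). For the gene body alone, own-border peaks counted for 4 PRC2 and 4 KDM genes (26.6% of all genes). The off-border count of remodellers stayed within 1.5 times its main value in every alternative run. With a border zone of 5 kb, however, 5 remodellers had an off-border peak and 7 an own-border peak, the reverse of the main order. The length-matched share was 64.6% for any peak and 21.8% for off-border peaks when neighbouring borders were matched as well, and 20% for off-border peaks with the 200 genes nearest in length. Peaks within 0.5 kb of a start were found at 24 of 36 genes and at 35.2% of all genes with annotated starts. With 1 mismatch allowed, 43 of the 50 promoters held a forkhead or FOXL2 motif, as did 91.9% of all promoters. Weak and strong sites cannot be told apart, and the authors' threshold sets every count.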
